A study of Mus musculus with 15 samples.

Results

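Branched-chain amino acid (BCAA) catabolism was examined through 10 genes, Bcat2, Bckdha, Bckdhb, Dbt, Ivd, Mccc1, Mccc2, Hibch, Aldh6a1 and Pcca. They were taken by symbol from the 35373 genes of the deposited count table, and all 10 were found. Each of them was among the 16935 genes with enough counts to be tested. RNA came from intradermal adipocytes, the fat cells of the skin, recovered as the fraction of digested mouse dorsal skin that floats. Mice with Wnt activation were EngrailedCre/+; Rosa26rtTA/Rosa26rtTA; TetOBcat/+ and were taken after 2 days of activation at postnatal day 23 (P23, n = 4) or after 5 days at P26 (n = 5). Controls were +/+; Rosa26rtTA/Rosa26rtTA; TetOBcat/+, so they carried the same transgenes without the Cre, and were taken at P23 (n = 3) and at P26 (n = 3). Every mouse, controls included, received doxycycline in food (6 g/kg) and in water (2 mg/mL). TetOBcat drives β-catenin, which carries the Wnt signal to genes, from a promoter that doxycycline opens through rtTA. EngrailedCre acts in cells of the lineage that expressed Engrailed, which in dorsal skin includes dermal cells, so the activation was not limited to adipocytes by its driver.

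Leucine, isoleucine and valine are broken down in mitochondria by a shared opening and separate endings. The aminotransferase BCAT2 first moves the amino group away, and the branched-chain α-keto acid dehydrogenase complex (BCKDH) then removes carbon dioxide and makes an acyl-CoA in the step that commits the carbon to breakdown. Adipocytes take up this pathway as they differentiate and use its acetyl-CoA and propionyl-CoA in fatty acid synthesis. BCKDH is switched off by the kinase BCKDK and on by the phosphatase PPM1K.

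Library totals ran from 11383421 to 38501753 counts, with 13027 to 16663 genes detected. Axin2, a feedback target of Wnt signalling, stood at 10.01 to 65.0 CPM after 2 days of Wnt against 5.48 to 39.8 CPM in P23 controls, and at 28.2 to 62.8 CPM after 5 days against 4.17 to 34.8 CPM in P26 controls. CPM here is a gene's count scaled to the normalised size of its library. Ctnnb1, which encodes β-catenin, ran from 153 to 484 CPM after 2 days against 190 to 312 CPM in P23 controls, and from 269 to 415 CPM after 5 days against 165 to 341.4 CPM in P26 controls. The ranges overlapped for both genes at both ages, and also for Lef1, checked as a further Wnt target. edgeR's test called none of these genes at either age. Log2 fold changes at 2 days were 1.03 ± 0.74 for Axin2, 0.24 ± 0.40 for Ctnnb1 and 1.15 ± 1.44 for Lef1. At 5 days they were 1.43 ± 0.73, 0.40 ± 0.38 and -0.34 ± 1.33, with adjusted p in edgeR of 0.708, 0.938 and 0.999. Adipoq, which encodes the adipocyte hormone adiponectin, was present in all 15 libraries, lowest at 370 CPM in P26 control replicate 1.

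A pair of libraries stood apart. The library labelled 2-day Wnt replicate 1 is given as a control in the deposited sample sheet. Its library name also ends in C, as do those of all controls, whereas the names of the other Wnt libraries end in W. This 2-day library had 31.7% of its counts from mitochondrially encoded genes against 3.69% to 19.4% in the others, and its 6 hair follicle markers summed to 4224 CPM against at most 567 CPM elsewhere. P26 control replicate 1 had the highest sum of 7 keratinocyte markers, 3815 CPM against at most 804 CPM elsewhere, and the lowest weight in limma-voom, 0.174. The 10 adipocyte markers summed to 22347 CPM in the first of these libraries and 11854 CPM in the second. Such low sums were not particular to this pair, since 5-day Wnt replicates 1 and 5 had 21757 and 11760 CPM. Y-linked transcripts were present in 3 of 4 libraries after 2 days against 1 of 3 P23 controls, and in 5 of 5 libraries after 5 days against 1 of 3 P26 controls, so sex and genotype were only partly separable. In bulk RNA, fewer cells of a type and less RNA per cell cannot be told apart.

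Per kilobase of exon, the 10 genes spanned more than an order of magnitude. Averaged over the 15 libraries, Bckdha had 167 CPM per kb and Bcat2 had 112 CPM per kb, the highest of the set. Bckdhb, Ivd, Aldh6a1 and Mccc2 lay close together at 55.2, 54.5, 53.6 and 50.2 CPM per kb. Pcca had 18.2, Dbt 13.4, Hibch 10.3 and Mccc1 9.82 CPM per kb, the lowest values. This order depends on the length used, the union of all annotated exons, which was 10952 bases for Mccc1 and 1805 for Bckdhb. By CPM alone Bcat2 was highest at 438 and Dbt lowest at 45.0, and Mccc1, at 108, was above Bckdhb, at 99.7. Within BCKDH the E2 subunit Dbt was the lowest of 3 subunits per kilobase and Bckdha the highest. Levels of genes that lie under another gene on the other strand are uncertain, because the use of strand in the counting is not given in the sources used here. That applies to Bcat2 (antisense 0610005C13Rik), Bckdha (B3gnt8), Bckdhb (Gm46124), Aldh6a1 (Bbof1), Pcca (Ggact), Mccc1 (Mccc1os), Dbt (Gm4596) and Hibch (Gm16107), while Ivd and Mccc2 overlapped no annotated gene.

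The stretch just upstream of the gene start is shown for 4 of the genes, because Bcat2 and Ivd varied together across libraries, Aldh6a1 holds the core letters of a TCF/LEF element, through which β-catenin acts, and Mccc2 was the gene that was not lower after 2 days. The sequences are RefSeq's, on GRCm38.p6, 5′ to 3′ on the strand of the gene, and end before the gene as the count table spans it. Capitals mark matches to the motifs CCAAT (the NF-Y box), GGGCGG (the GC box of Sp and Klf factors), CACGTG (an E-box), CTTTGA (TCF/LEF core), TCACNCCAC (sterol regulatory element) and the PPAR and RXR repeat (AGGTCA again after 1 free base), each read on both strands, so that ATTGG counts for the first, CCGCCC for the second and TCAAAG for the fourth.
Bcat2, chr7:45569903-45570152, plus strand: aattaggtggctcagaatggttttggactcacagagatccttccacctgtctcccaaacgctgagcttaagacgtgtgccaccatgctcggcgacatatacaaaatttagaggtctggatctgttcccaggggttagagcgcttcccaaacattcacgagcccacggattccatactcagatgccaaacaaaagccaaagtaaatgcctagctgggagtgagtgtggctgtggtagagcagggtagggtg
Ivd, chr2:118861744-118861953, plus strand: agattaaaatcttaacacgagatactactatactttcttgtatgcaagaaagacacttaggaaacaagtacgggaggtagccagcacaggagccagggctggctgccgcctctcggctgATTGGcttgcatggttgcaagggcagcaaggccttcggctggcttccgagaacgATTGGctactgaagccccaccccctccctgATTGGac
Aldh6a1, chr12:84451025-84451274, minus strand: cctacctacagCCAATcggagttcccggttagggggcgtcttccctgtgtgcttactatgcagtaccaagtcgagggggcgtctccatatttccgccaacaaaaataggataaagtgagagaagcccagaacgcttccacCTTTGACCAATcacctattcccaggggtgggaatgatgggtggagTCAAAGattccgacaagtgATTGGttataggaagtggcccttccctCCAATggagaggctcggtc
Mccc2, chr13:100015640-100015889, minus strand: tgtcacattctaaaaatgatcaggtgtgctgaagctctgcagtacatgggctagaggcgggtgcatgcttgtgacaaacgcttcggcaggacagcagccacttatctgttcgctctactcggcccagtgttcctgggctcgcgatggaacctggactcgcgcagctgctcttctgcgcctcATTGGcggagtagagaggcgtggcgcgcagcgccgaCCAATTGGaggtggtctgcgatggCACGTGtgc

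The Bcat2 stretch held none of the 6 motifs, whereas Aldh6a1 held 4 CCAAT boxes and 2 CTTTGA matches, one of which touches a CCAAT box without sharing a base. In the Ivd stretch there were 3 CCAAT boxes, and in that of Mccc2 there were 3, of which 2 overlap on opposite strands, with 1 CACGTG. Over the 250 bases before the RefSeq starts, 13 windows covered 9 of the 10 genes (all but Dbt). CCAAT was in 8 of these 13 windows and in 33.8% of 32851 promoters of the same length. GGGCGG was in 4 of 13 and in 32.7% of all promoters, with 5 copies for Hibch. CACGTG was in 1 of 13 (6.02% of all), CTTTGA in 1 of 13 (13.8% of all), and the last 2 motifs in 0 of 13 (1.05% and 0.0335% of all). A match is a description of letters.

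Bcat2 encodes the mitochondrial aminotransferase that opens the pathway (ENSMUSG00000030826, chr7:45570153-45589711, plus strand, GRCm38). It stood at 122, 1284, 352 and 387 CPM after 2 days of Wnt, against 834, 1089 and 397 CPM in P23 controls. After 5 days it stood at 101, 294, 337.1, 435 and 77.6 CPM, against 156, 223 and 488 CPM in P26 controls. The groups overlapped at both ages, and the highest library of all was a 2-day Wnt library. Between its highest and lowest library Bcat2 spanned 16.5-fold, which only Ivd among the 10 genes exceeded, at 16.6-fold.

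**Figure D1:**
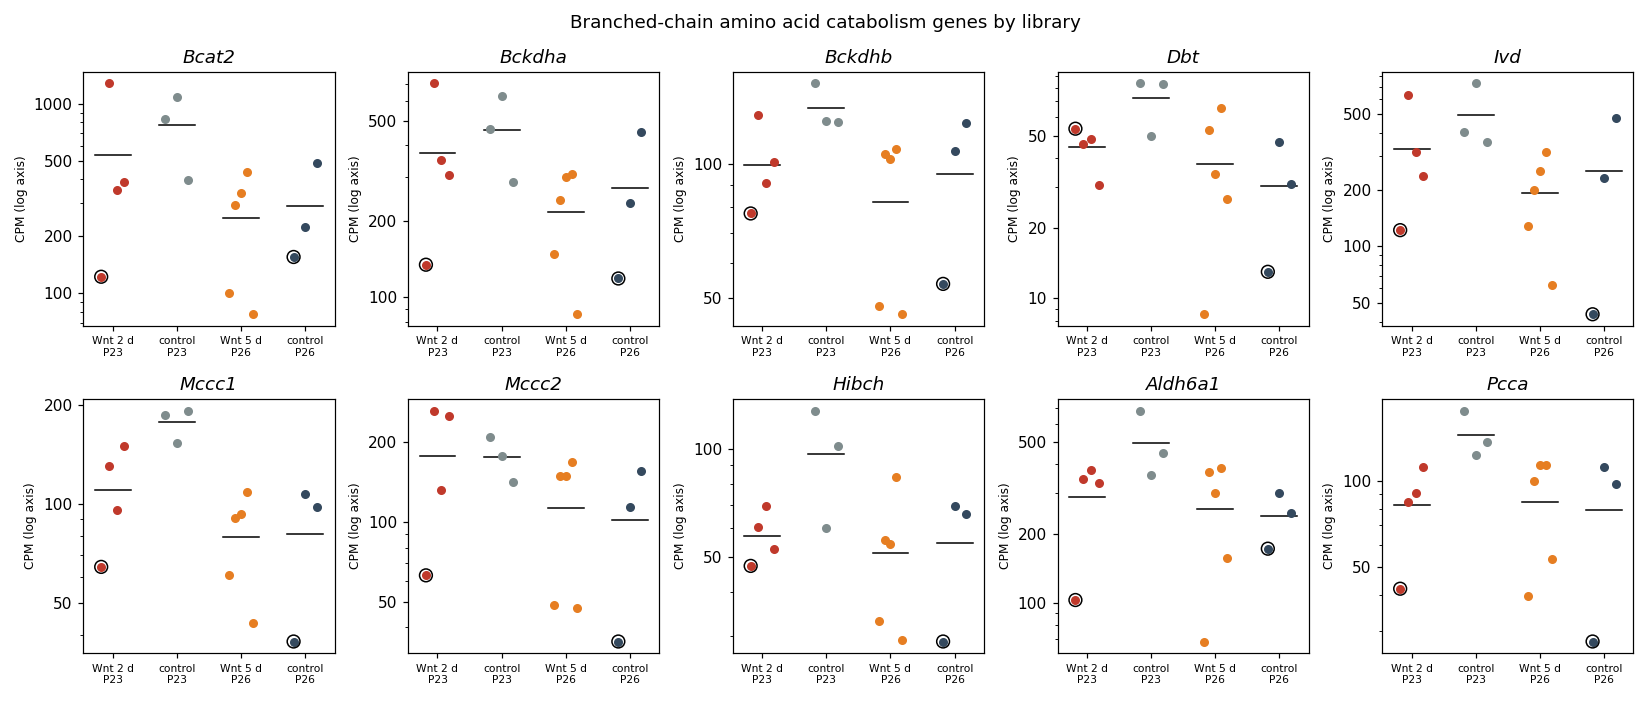
CPM of the 10 genes (log axes) in each library by group, Wnt left of its control at each age; bars are group means and black rings mark 2-day Wnt replicate 1 and P26 control replicate 1. The P23 control mean is the highest of the 4 group means for 9 of the 10 genes, Mccc2 being the exception.

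The E1α subunit gene Bckdha (ENSMUSG00000060376, chr7:25629946-25658981, minus strand) encodes the part of BCKDH that is phosphorylated. It had 134, 704, 350 and 305 CPM after 2 days, against 464, 628 and 287 CPM in P23 controls. In 5-day libraries it had 149, 243, 300.4, 307 and 85.5 CPM, against 119, 237 and 453 CPM in P26 controls. Its order of libraries was nearly that of Bcat2, with the same highest and the same lowest library. Bckdhb, the E1β subunit (ENSMUSG00000032263, chr9:83925145-84124240, plus strand), had 77.5, 129, 90.9 and 101 CPM after 2 days, against 152, 125 and 124 CPM in P23 controls. After 5 days Bckdhb had 47.9, 105, 103, 108 and 46.0 CPM, against 53.8, 107 and 124 CPM in P26 controls. Bckdhb was the steadiest of the 10 genes, with 3.31-fold between its extreme libraries.

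Dbt encodes the E2 core that carries the lipoyl arm of BCKDH (ENSMUSG00000000340, chr3:116513070-116549981, plus strand). It had 53.5, 45.9, 48.4 and 30.6 CPM after 2 days, against 83.7, 49.6 and 83.3 CPM in P23 controls. At P26 Dbt had 8.55, 53.0, 34.3, 65.9 and 26.7 CPM after 5 days, against 13.0, 47.1 and 30.9 CPM in P26 controls. The 2-day groups overlapped only through 2-day replicate 1 and P23 control replicate 2, and at 5 days the Wnt libraries lay on both sides of the controls.

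In the leucine branch, Ivd encodes isovaleryl-CoA dehydrogenase (ENSMUSG00000027332, chr2:118861954-118882909, plus strand). It had 122, 634, 316 and 236 CPM after 2 days, against 403, 728 and 358 CPM in P23 controls. At P26 Ivd had 128, 198, 251, 315 and 62.7 CPM after 5 days, against 43.8, 231 and 476 CPM in P26 controls. The lowest and the highest Ivd levels both fell in control libraries. Mccc1 and Mccc2 encode the α subunit, which carries biotin, and the β subunit of 3-methylcrotonyl-CoA carboxylase.

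Mccc1 (ENSMUSG00000027709, chr3:35959312-36000678, minus strand) had 64.4, 130.5, 95.7 and 150.0 CPM after 2 days, against 187, 153 and 192 CPM in P23 controls. After 5 days it had 60.7, 90.4, 93.1, 109 and 43.4 CPM, against 38.2, 108 and 98.1 CPM in P26 controls. All 4 libraries at 2 days lay below all 3 P23 controls, by a narrow gap from 150.0 to 153 CPM, and the 5-day groups overlapped. Its partner Mccc2 (ENSMUSG00000021646, chr13:99948530-100015639, minus strand) had 62.9, 263, 132 and 252 CPM after 2 days, against 210.2, 177 and 142 CPM in P23 controls. After 5 days Mccc2 had 48.6, 149, 149, 168 and 47.3 CPM, against 35.4, 114 and 156 CPM in P26 controls. Here 2 of the 4 libraries at 2 days exceeded every P23 control.

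In the valine branch, Hibch encodes 3-hydroxyisobutyryl-CoA hydrolase (ENSMUSG00000041426, chr1:52844929-52920986, plus strand). It had 47.2, 60.5, 69.2 and 52.5 CPM after 2 days, against 128, 60.1 and 102 CPM in P23 controls. After 5 days Hibch had 33.02, 55.8, 54.2, 83.4 and 29.2 CPM, against 29.003, 69.2 and 65.7 CPM in P26 controls. The groups overlapped at both ages, at 2 days through P23 control replicate 2. Aldh6a1, methylmalonate semialdehyde dehydrogenase (ENSMUSG00000021238, chr12:84430717-84451004, minus strand), had 103, 345, 379.7 and 331 CPM after 2 days, against 684, 361.01 and 446 CPM in P23 controls. After 5 days Aldh6a1 had 68.0, 369.9, 299, 386 and 156 CPM, against 172, 301 and 245 CPM in P26 controls. At 2 days only replicate 3 reached into the range of the controls.

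Pcca encodes the biotin-carrying subunit of propionyl-CoA carboxylase, where the valine and isoleucine branches meet (ENSMUSG00000041650, chr14:122534324-122891100, plus strand). It had 42.1, 84.1, 91.0 and 112 CPM after 2 days, against 176, 123 and 136 CPM in P23 controls. After 5 days it had 39.8, 100.0, 114, 114 and 53.5 CPM, against 27.6, 112 and 97.9 CPM in P26 controls. Like Mccc1, Pcca was lower in every 2-day library than in every P23 control, and overlapped at 5 days.

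**Figure D2:**
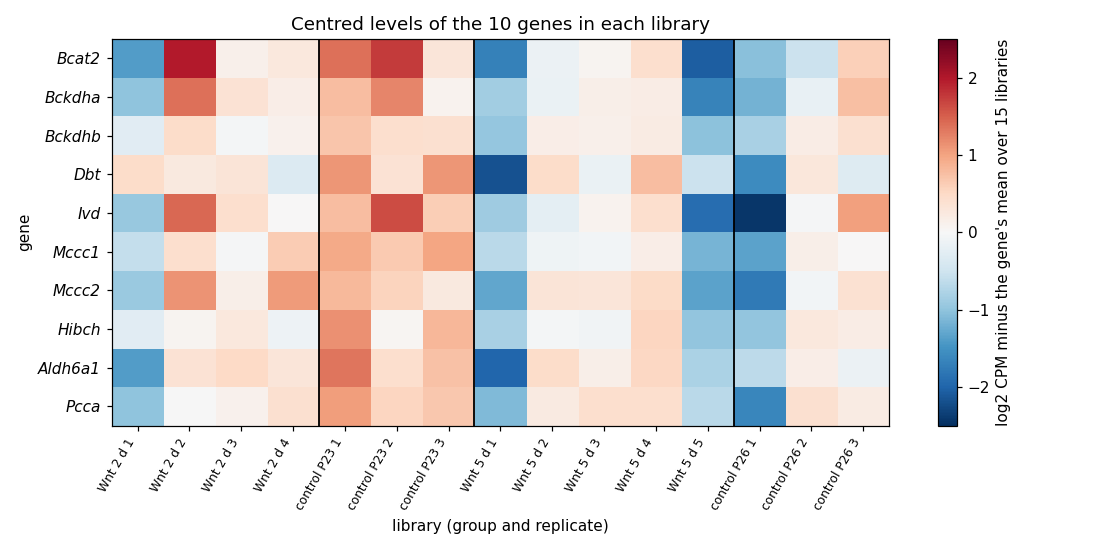
Log2 CPM of each of the 10 genes (vertical axis) minus its mean over 15 libraries, by library (horizontal axis), groups split by black lines with Wnt left of its control. The 4 libraries with the lowest mean over the 10 genes are P26 control 1 (-1.34), Wnt 5 d 1 (-1.24), Wnt 5 d 5 (-1.21) and Wnt 2 d 1 (-0.74).

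After 2 days of Wnt, 9 of the 10 genes were lower than in P23 controls and Mccc2 was level with them, but none of these differences passed the test. Estimated log2 fold changes were -0.81 ± 0.47 (SE) for Pcca, -0.78 ± 0.53 for Aldh6a1, -0.75 ± 0.40 for Hibch, -0.70 ± 0.52 for Dbt and -0.69 ± 0.40 for Mccc1. Bcat2 and the E1 subunits had -0.53 ± 0.69 (Bcat2), -0.43 ± 0.38 (Bckdhb) and -0.30 ± 0.56 (Bckdha). Ivd had -0.60 ± 0.66 and Mccc2 had 0.01 ± 0.56. The median over the 10 genes was -0.64, beside a median of 0.00 over all genes tested, of which 49.9% were lower.

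With edgeR's quasi-likelihood test and Benjamini-Hochberg adjustment over all genes, 0 of the 10 genes were called at 2 days, where 0.0% of all genes were called. Without adjustment, at p under 0.05, there were again 0 of the 10, where 5.17% of all genes passed. DESeq2 called 0.901% of genes and limma-voom with library weights 0.0%, none of them among the 10. The smallest adjusted p of the 10 was 0.919, for Hibch. The 2 genes without overlap between groups, Mccc1 and Pcca, stand beside 2.91% of all genes that lay wholly lower, and none of the 10 lay wholly higher, beside 2.24%. Without 2-day replicate 1 the median was -0.41 and Dbt joined them (3 genes, beside 4.70% of all genes). With that library placed among the controls, as in the sample sheet, the median was -0.17, 3 of the 10 genes were higher and Dbt alone lay wholly lower, beside 2.14% of all genes. Adipocyte markers lay on the same side in this comparison, with all 10 lower and a median of -0.44, while all 6 stromal and all 8 leukocyte markers were higher, with medians of 0.85 and 1.10. The mitochondrial share of counts was 8.37% to 31.7% after 2 days against 5.30% to 9.36% in P23 controls. The part of any of these in the result was not tested.

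After 5 days of Wnt the 10 genes were nearly level with P26 controls, 6 lower and 4 higher, with a median log2 fold change of -0.07 beside 0.03 over all genes, of which 48.4% were lower. The lowest estimate was -0.39 ± 0.63 for Ivd, followed by -0.31 ± 0.53 for Bckdha and -0.22 ± 0.66 for Bcat2. The highest was 0.31 ± 0.51 for Dbt. edgeR called 0 of the 10 genes, with a smallest adjusted p of 0.999, where 0.0% of all genes were called. At an unadjusted p under 0.05 there were 0 of the 10, beside 7.06% of all genes. DESeq2 called 1.21% and limma-voom 1.33% of all genes, and neither called any of the 10. None of the 10 lay wholly lower or wholly higher, as 2.25% and 3.39% of all genes did.

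This comparison rested on single control libraries. Without P26 control replicate 1, all 10 genes were lower after 5 days, with a median of -0.37 (0.10 over all genes). Without P26 control replicate 3 all 10 were higher, with a median of 0.28 (0.12 over all genes). Wnt replicates 1 and 5 were the lowest of the 5-day group for each of the 10 genes, and leaving out replicate 5 gave 7 genes higher and a median of 0.11. The 10 adipocyte markers were all lower at 5 days, with a median of -0.35, and summed to 11760 to 56979 CPM after 5 days against 11854 to 74146 CPM in P26 controls. Keratinocyte markers, 7 of 7, were lower, with a median of -3.28, and summed to 31.8 to 505 CPM after 5 days against 367.8 to 3815 CPM in P26 controls. Stromal markers, 5 of 6, vascular markers, 5 of 5, and Schwann cell markers, 4 of 4, were higher, with medians of 0.77, 1.31 and 1.48. The mitochondrial share of counts was 9.20% to 16.6% after 5 days against 3.69% to 7.93% in P26 controls, without overlap. The part of any of these in the result was not tested.

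**Figure D3:**
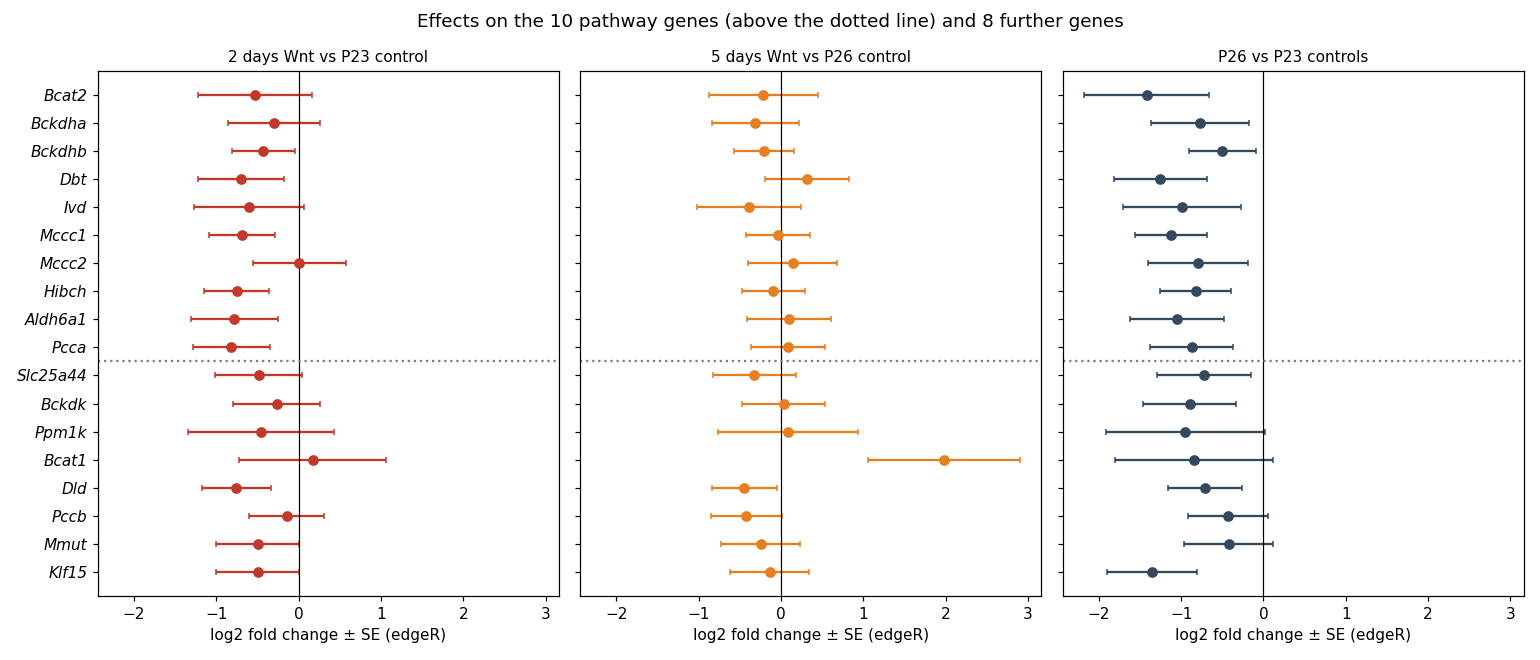
Log2 fold change ± SE from edgeR (horizontal axis) for the 10 genes, above the dotted line, and 8 further pathway genes, after 2 days of Wnt against P23 controls, after 5 days against P26 controls, and in P26 against P23 controls. None passed an adjusted p of 0.05; the largest 5-day estimate is that of Bcat1, at 1.98.

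The change of effect between 2 and 5 days was tested directly as the difference of both log2 fold changes. It was above 0 for 9 of the 10 genes, from 0.13 for Mccc2 to 1.01 ± 0.73 for Dbt, with -0.01 for Bckdha, and the median was 0.48, where 47.3% of all genes were below 0. edgeR called 0 of the 10 (smallest adjusted p 1.00), beside 0.0% of all genes, and 0 of the 10 at an unadjusted p under 0.05, beside 5.72%. DESeq2 called 0.901% and limma-voom 0.0% of all genes, and none of the 10. Without both libraries that stood apart the median was -0.01, with 5 genes on either side. Averaged over both ages, the Wnt effect was below 0 for 9 of the 10 genes, with a median of -0.35 and the lowest value -0.50 ± 0.46 for Ivd, where 48.5% of all genes were below 0. edgeR called 0 of the 10 (smallest adjusted p 0.781, for Hibch), beside 0.0% of all genes, and 0 at an unadjusted p under 0.05, beside 7.85%. DESeq2 called 1.94% and limma-voom 0.065% of all genes, none among the 10.

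The controls of both ages were also compared with each other. In P26 controls all 10 genes were lower than in P23 controls, with a median log2 fold change of -0.93 beside -0.01 over all genes, of which 50.6% were lower. Bcat2 had -1.42 ± 0.76, Dbt -1.25 ± 0.57, Mccc1 -1.12 ± 0.44 and Aldh6a1 -1.05 ± 0.57. The others ran from -0.99 for Ivd to -0.50 ± 0.41 for Bckdhb.

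None of these passed the adjusted test either. edgeR called 0 of the 10 genes, with a smallest adjusted p of 0.678 for Mccc1, where 0.0% of all genes were called. At an unadjusted p under 0.05 there were 2 of the 10, Mccc1 and Dbt, where 6.98% of all genes passed. DESeq2 called 1.73% and limma-voom 0.791% of all genes, none among the 10. Bckdhb, Dbt, Mccc1, Aldh6a1 and Pcca lay wholly lower in P26 than in P23 controls, 5 of 10 where 5.67% of all genes did so, and none lay wholly higher, beside 6.51%. Bckdhb was apart by the smallest margin, its highest P26 control at 123.6 CPM against its lowest P23 control at 124.4 CPM.

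Without P26 control replicate 1 all 10 genes stayed lower in P26 controls, but the median was -0.52, the smallest adjusted p was 0.998, and the same 5 genes lay wholly lower beside 9.12% of all genes. The median was then no longer farther from 0 than that of the 2-day Wnt comparison, which was -0.65 in the same fit. Under limma-voom the medians of the 10 genes were -0.67 between control ages and -0.76 at 2 days. The medians over all genes were there -0.045 and -0.15, so these comparisons were not centred alike. In the grouping of the sample sheet, where the P23 controls gain 2-day replicate 1, the median was -0.66 and Dbt alone lay wholly lower, beside 2.17% of all genes. Other markers also differed in level between these controls. Adipocyte markers were lower, 10 of 10, with a median of -0.64. Keratinocyte markers, 7 of 7, and leukocyte markers, 8 of 8, were higher, with medians of 3.94 and 2.03. Leukocyte markers summed to 365 to 1489 CPM in P26 controls against 211 to 245 CPM in P23 controls. The sum of 365 CPM, in P26 control replicate 1, held 242 CPM of Cd74, while Ptprc, Adgre1 and Cd3e had no counts there. The mean log2 level of the leukocyte markers, each centred on its own mean, was lowest of the 15 libraries in that replicate (-2.44). The part of these markers in the lower levels was not tested.

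The other genes of the pathway were counted over a list of 27, all tested. After 2 days 22 were lower and 5 higher, with a median of -0.32, and after 5 days 19 were lower and 8 higher, with a median of -0.21. In P26 against P23 controls 23 were lower and 4 higher, with a median of -0.65. edgeR called none of the 27 in any of these comparisons, where 0.0% of all genes were called. At an unadjusted p under 0.05 it passed 1, 1 and 3 of them, beside 5.17%, 7.06% and 6.98% of all genes.

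Genes that set the activity of BCKDH were within 1 SE of their controls at both ages. Bckdk, the inhibiting kinase, had 88.9, 255, 111 and 95.7 CPM after 2 days, against 134, 243 and 119.6 CPM in P23 controls. Its log2 fold change was -0.26 ± 0.53 after 2 days and 0.03 ± 0.51 after 5 days. Ppm1k, the activating phosphatase, had 18.4, 1.899, 19.7 and 16.8 CPM after 2 days, against 38.0, 6.01 and 14.3 CPM in P23 controls, and ranged from 0.339 to 15.4 CPM after 5 days, against 7.03 to 15.6 CPM in P26 controls. Its log2 fold change was -0.45 ± 0.89 after 2 days and 0.09 ± 0.85 after 5 days, the groups overlapping at both ages.

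Klf15, a transcription factor that promotes BCAA breakdown in muscle and liver of mice, had 49.4, 66.1, 122 and 81.9 CPM after 2 days, against 106, 155 and 78.1 CPM in P23 controls. In P26 controls it had 15.2, 47.2 and 70.3 CPM, all below the P23 controls, with a log2 fold change of -1.35 ± 0.55 in edgeR (adjusted p = 0.690). Slc25a44, the mitochondrial BCAA carrier, had a log2 fold change of -0.48 ± 0.53 after 2 days and -0.32 ± 0.50 after 5 days. Dld, the E3 subunit that BCKDH shares with other dehydrogenases, had -0.75 ± 0.42 and -0.44 ± 0.40, and Mmut, methylmalonyl-CoA mutase, had -0.50 ± 0.50 and -0.25 ± 0.48. None of these reached a call.

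Among the amino acid carriers of the plasma membrane on the list, limma-voom called 2, Slc7a8 and Slc43a2, which are named for that reason. Slc43a1, which was not called, had 93.6, 83.0 and 149 CPM in P26 controls against 434, 228 and 88.9 CPM in P23 controls, with overlap. Its mean was lower in P26 controls, at 109 against 250.4 CPM. Slc7a8, a carrier of large neutral amino acids, had 30.6, 54.3 and 50.4 CPM in P26 controls against 7.41, 13.6 and 8.48 CPM in P23 controls, with no overlap. Its log2 fold change was 2.197 ± 0.69 in edgeR (adjusted p = 0.580), while limma-voom gave 2.58 ± 0.52 with an adjusted p of 0.028. After 2 days of Wnt Slc7a8 had 49.8, 11.6, 25.7 and 9.98 CPM, overlapping the P23 controls. Its mean was higher than theirs, at 24.3 against 9.83 CPM. After 5 days of Wnt Slc7a8 had 55.4, 18.1, 11.1, 11.3 and 46.0 CPM, overlapping the P26 controls. With limma-voom, in which 5-day replicates 1 and 5 and P26 control replicate 1 had the lowest weights, it was called lower at -1.80 ± 0.37 (adjusted p = 0.022), and edgeR gave -0.67 ± 0.58 (adjusted p = 0.916).

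Slc43a2, another carrier of neutral amino acids, had 10.8, 31.5 and 30.001 CPM in P26 controls against 0.544, 8.69 and 1.74 CPM in P23 controls. After 5 days of Wnt it had 6.26, 9.37, 3.19, 4.06 and 31.4 CPM, so that 4 of 5 Wnt libraries lay below all P26 controls. Here limma-voom called a lower level after 5 days, at -2.41 ± 0.53 (adjusted p = 0.031), and edgeR gave -1.15 ± 0.84 (adjusted p = 0.851). The leukocyte markers given above were, like both carriers, higher in P26 controls as a group. In P26 control replicate 1, however, the mean log2 level of these markers was the lowest of the 15 libraries. Slc7a8 stood there at 30.6 CPM and Slc43a2 at 10.8 CPM. After 5 days 5 of 8 leukocyte markers were lower, with a median of -0.25. They summed to 1181 and 1014 CPM in 5-day replicates 1 and 5, against 322 to 486 CPM in the others of that group. Slc7a8 was highest in those same replicates, while Slc43a2 was high in replicate 5 but not in replicate 1. The part of leukocyte markers in these levels was not tested.

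Bcat1, the cytosolic aminotransferase, was the pathway gene that stood farthest from its controls after 5 days. It had 57.6, 31.8, 30.5, 31.4 and 28.3 CPM after 5 days, against 0.045, 13.4 and 13.9 CPM in P26 controls, the lowest of them resting on 1 count. Every Wnt library was above every control, as for 3.39% of all genes. The 5 vascular markers were likewise apart in sum, at 313 to 1176 CPM after 5 days against 168 to 312 CPM in P26 controls, and their part in the level of Bcat1 was not tested. edgeR gave a log2 fold change of 1.98 ± 0.92 (adjusted p = 0.707), so it was not called. Without P26 control replicate 1 the value was 1.402 ± 0.60 (adjusted p = 0.766 in edgeR). Over the alternatives it ran from 1.402 to 4.21, the highest with the sex covariate, and the adjusted p ranged from 0.229 to 1.00. The only P26 control with Y-linked transcripts present was replicate 1, which had the single Bcat1 count. Its part in the value with the sex covariate was not tested.

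At 2 days Bcat1 had 40.9, 15.01, 7.002 and 10.98 CPM, against 10.8, 14.55 and 23.7 CPM in P23 controls. Only replicate 1, the library given as a control in the sample sheet, was above the controls, and the log2 fold change was 0.17 ± 0.89. The difference between the 5-day and 2-day effects was 1.81 ± 1.25 (adjusted p = 1.00 in edgeR). Bcat2 did not follow Bcat1, so that the ratio of Bcat2 to Bcat1 was 1.75 to 13.9 after 5 days against 16.6 to 3436 in P26 controls. The groups were apart, with an exact permutation p of 0.036, two-sided and the smallest that 5 against 3 libraries allow, and 0.286 after adjustment over 10 such ratio tests. Without P26 control replicate 1, whose single count makes the highest ratio, the log2 difference was -2.05, with an exact permutation p of 0.095, the smallest that 5 against 2 libraries allow.

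**Figure D4:**
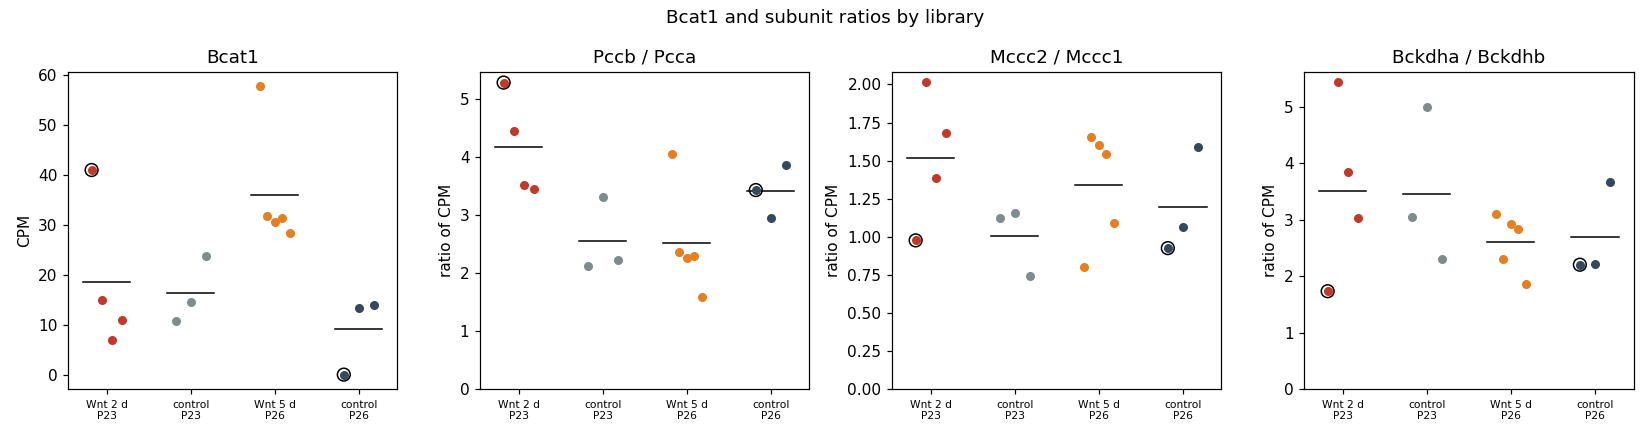
CPM of Bcat1 and the ratios of CPM of Pccb to Pcca, Mccc2 to Mccc1 and Bckdha to Bckdhb in each library, Wnt left of its control, with bars at group means and black rings as before. Bcat1 is higher in all 5 libraries after 5 days (28.3 to 57.6 CPM) than in P26 controls (at most 13.9 CPM), and Pccb to Pcca is higher in all 4 libraries after 2 days (3.46 to 5.29) than in P23 controls (2.12 to 3.32).

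Ratios between subunits compare genes within a library, where a factor common to both cancels. Propionyl-CoA carboxylase needs Pcca and Pccb, its β subunit. Pccb had 223, 376, 320.4 and 387 CPM after 2 days, against 372, 407 and 302 CPM in P23 controls, a log2 fold change of -0.14 ± 0.45. The ratio of Pccb to Pcca was thus 3.46 to 5.29 after 2 days against 2.12 to 3.32 in P23 controls, a difference of 0.72 in log2 (exact permutation p = 0.057, two-sided, the smallest that 4 against 3 libraries allow; 0.286 after adjustment over 10 tests). Without 2-day replicate 1 the difference was 0.60 (exact permutation p = 0.10, the smallest that 3 against 3 allow). With that library among the controls, as in the sample sheet, the groups overlapped, at 3.46 to 4.46 after 2 days against 2.12 to 5.29.

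After 5 days the difference had the other sign, with Pccb to Pcca at 1.59 to 4.06 against 2.96 to 3.87 in P26 controls (-0.50 in log2, exact permutation p = 0.143). Mccc2 to Mccc1 was 0.976 to 2.02 after 2 days against 0.740 to 1.16 in P23 controls, with overlap through replicate 1 (exact permutation p = 0.171). The ratio of Bckdha to Bckdhb gave differences of -0.02 at 2 days and -0.03 at 5 days (exact permutation p = 1.00 for both). Bckdha to Dbt gave 0.22 and -0.46 (exact permutation p = 0.800 and 0.536). At 2 days the subunit ratios of both biotin-dependent carboxylases lay farther from their controls than those of BCKDH, without passing the adjusted test.

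Across the 15 libraries the 10 genes varied together, and close pairs cut across the branches. The values are a description over 15 libraries that share preparation and differ in depth. Log2 CPM of Bcat2 and Bckdha had a Pearson r of 0.97 (Spearman 0.95). Ivd joined them with 0.96 to Bckdha and 0.89 to Bcat2. Bckdhb had 0.88 with each of these 3 genes, and Mccc2 had 0.87 with Bcat2, 0.89 with Bckdha and 0.88 with Ivd. Dbt kept apart from Bcat2, Bckdha and Ivd, with r of 0.56, 0.51 and 0.60, although it encodes a subunit of the same complex as Bckdha. Dbt lay closer to Hibch (0.84) and to its fellow subunit Bckdhb (0.78). Mccc1 and Pcca, the biotin carriers that were wholly lower after 2 days, had an r of 0.90.

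The mean level of the 10 genes ran with that of adipocyte marker RNA. Over 15 libraries its Pearson r with the mean of the 10 adipocyte markers was 0.95 (Spearman 0.91), and 0.93 without the 2 libraries farthest from the median. Part of this rests on the 4 low libraries, since over the 11 libraries with an adipocyte mean above 0 the r was 0.65 (Spearman 0.79). For 13 citrate cycle genes r was 0.91 in 15 libraries and 0.81 in those 11, and for 6 subunits of the sister dehydrogenases, pyruvate and 2-oxoglutarate dehydrogenase, it was 0.89 and 0.75. For 8 lipogenesis genes, among them Fasn and Acly, it was 0.76 and 0.37. Markers of stromal cells had an r of -0.60 with the 10 genes, leukocyte markers -0.38 and keratinocyte markers -0.41. Without the 2 libraries farthest from the median of each list these were -0.40, -0.95 and -0.06. These values are descriptions and carry no test.

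**Figure D5:**
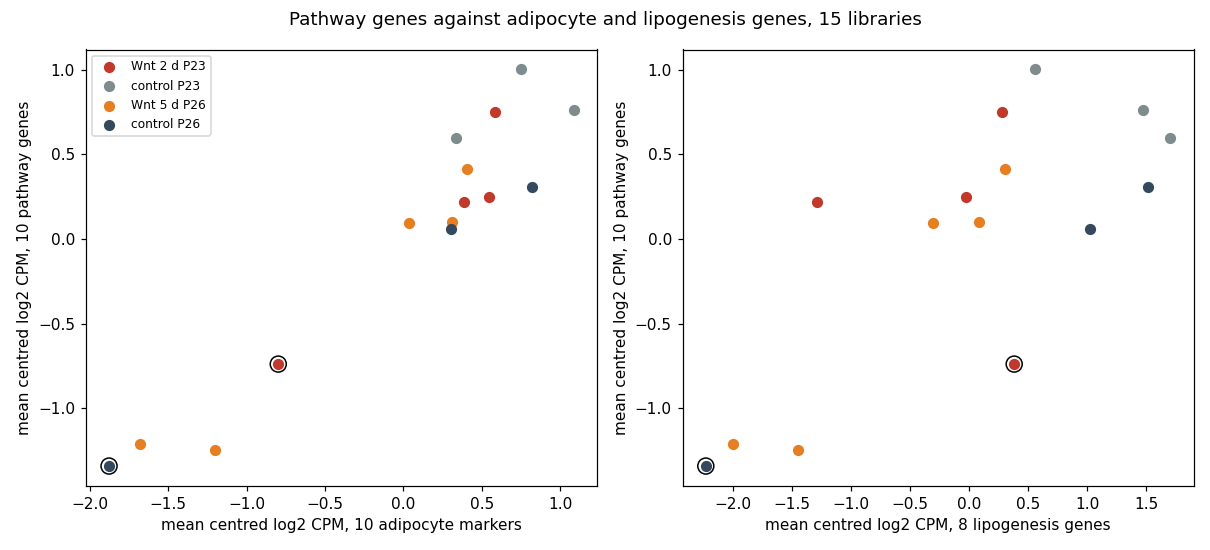
Mean centred log2 CPM of the 10 BCAA catabolism genes (vertical axes) against that of 10 adipocyte markers and of 8 lipogenesis genes (horizontal axes), 1 point per library, black rings as before. Points follow the adipocyte markers closely (r = 0.95) and the lipogenesis genes less so (r = 0.76).

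The neighbouring routes gave other values in the same fits. After 2 days the lipogenesis genes, 8 of 8 lower, had a median of -1.32, the sister dehydrogenase subunits, 6 of 6 lower, -0.74, and the citrate cycle genes, 13 of 13 lower, -0.50, beside -0.64 for the 10 BCAA genes. After 5 days lipogenesis stood at -1.42, with 8 of 8 lower, the sister subunits at -0.38, the citrate cycle at -0.16 and the BCAA genes at -0.07. In P26 against P23 controls the medians were -0.80, -0.98, -0.67 and -0.93 for these lists in the same order. edgeR called none of these genes in these comparisons, where 0.0% of all genes were called. Among these lists the BCAA genes lay nearest to the oxidative ones and above lipogenesis in both Wnt comparisons. Between control ages lipogenesis lay nearer to them than the citrate cycle did. Adipocyte markers had medians of -0.44 after 2 days and -0.35 after 5 days, the latter nearer to the BCAA genes than the sister subunits. Differences between lists were not tested.

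By likeness to the mean of the 10 genes over 15 libraries, among 8587 genes compared, the closest 8 included Car5b (r = 0.98), Cdo1 (0.97), Lgals12 (0.97), Car3 (0.97), Pou6f1 (0.97), Chpt1 (0.96) and Hibadh (0.96). Car5b encodes a mitochondrial carbonic anhydrase, Cdo1 cysteine dioxygenase and Lgals12 a galectin of lipid droplets. Hibadh, the valine enzyme that follows Hibch, was the closest gene of the pathway list, followed by Acad8 (r = 0.94, at place 19), Echs1 (0.91) and Pccb (0.89). At the other end of that list were Slc7a8 (-0.72) and Slc7a5 (-0.52), carriers of the plasma membrane. Bcat1 (0.22), Oxct1 (0.22) and Ppm1k (0.23) followed the 10 genes little.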

How the data were processed

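RNA was measured in 15 libraries, and replicates are labelled as biological. The authors deposited whole-number counts per gene, used here as raw counts; the labels' protocols give 100 ng of total RNA and the Universal Plus mRNA-Seq kit. Per the submitters' processing notes, Trimmomatic 0.39, SAMtools 1.9, Cufflinks 2.2.1 and DESeq2 1.40.1 were used, with builds mm10 and GRCm38. Aligner, counter and strand setting: not given in the sources used here. The deposited filtered counts (9395 genes) hold all 10 genes.

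Groups follow the titles, including 2-day replicate 1. Genes kept by filterByExpr were fitted in 1 model of 4 groups with TMM and edgeR's robust quasi-likelihood test (edgeR 4.0.16, R 4.3.3; two-sided, Benjamini-Hochberg, threshold 0.05), tested on simulated data. limma 3.58.1 (voom) and DESeq2 1.42.0 were alternatives, with other size factors and filters, a sex covariate, the sample sheet's grouping and libraries left out. Leaving out both libraries that stand apart was added after seeing the data. SEs are the fold change divided by the root of F; errors cover counting and replicate spread as modelled. CPM were computed from the counts; exon lengths are unions in GENCODE M21.

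The members and gene lists were chosen with earlier results of these data known. By rule, all members, any called gene of the pathway list, 8 fixed genes of it and the 8 closest genes are named, of which 1 is not reported here; Acad8, Echs1, Oxct1, Slc7a5, Slc43a1, Fasn and Acly were named after their values were seen, as were the genes that limma-voom called.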

Additional observations from a re-analysis of the deposited data

Results flagged for a closer look

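In groups of 4 or 5 libraries, 18 genes were searched for a library far from the others of its group, in 2 groups each, where chance alone marks about 1 in 20 groups. None of the 10 BCAA genes had such a library. Bckdk stood at 255 CPM in 2-day Wnt replicate 2, against 88.9 to 111 CPM in the other libraries of that group, and Ppm1k stood at 1.899 CPM in the same library, against 16.8 to 19.7 CPM. That library also had the highest Bcat2, Bckdha and Ivd of its group, at 1284, 704 and 634 CPM. Bcat1 stood at 57.6 CPM in 5-day Wnt replicate 1, against 28.3 to 31.8 CPM in the other libraries of that group, and all 5 lay above the P26 controls.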

How the results depend on the processing

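No alternative called any of the 10 genes in any comparison. In P26 against P23 controls all 10 were lower under all 24 alternatives, with medians of -1.25 to -0.52. After 2 days the median was -0.90 to -0.17 over 25 alternatives, with 7 to 10 genes lower. After 5 days it was -0.37 to 0.28, with 0 to 10 lower, so the direction depended on which library was left out. Over 24 alternatives medians were -0.0051 to 0.91 for the difference of effects and -0.49 to -0.13 for the average. With libraries left out in turn, they were 0.18 to 0.85 and -0.49 to -0.19. In the sample sheet's grouping the difference had a median of 0.084, with 5 genes on either side, and the average -0.13. Over all genes edgeR called 0 in each comparison, DESeq2 149, 200, 149, 321 and 286 and limma-voom 0, 226, 0, 11 and 134 (2 days, 5 days, difference, average, control ages). Some settings moved the median of all genes by over 0.1; for the difference it was 0.22 under voom and 0.056 in edgeR. The causes of the changes below were not tested.

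Signs of single genes at 2 days turned with voom for Mccc2 (-0.15) and Bcat1 (-0.27); without a filter for Mccc2 (-0.017); in the sample sheet's grouping for Bcat2 (0.14), Bckdha (0.26), Slc25a44 (0.078), Bckdk (0.074), Bcat1 (-1.03), Pccb (0.15) and Mmut (7.7e-05); with the sex covariate for Mccc2 (-0.095) and Bckdk (0.071); in a fit of only the 2 groups for Mccc2 (-0.015); and without both libraries that stood apart for Bcat1 (-0.58). At 5 days they turned with voom for Bckdk (-0.0052); with the sex covariate for Ivd (0.070), Mccc1 (0.012), Mccc2 (-0.033), Aldh6a1 (-0.44), Slc25a44 (0.12), Ppm1k (-0.31) and Klf15 (0.15); and without both libraries for Dbt (-0.035), Mccc2 (-0.25), Aldh6a1 (-0.080), Pcca (-0.31) and Bckdk (-0.41). Leaving out each library in turn gave at 2 days -0.24 to 0.29 for Mccc2, -0.75 to 0.12 for Bckdk, -0.88 to 0.48 for Ppm1k, -0.57 to 0.50 for Bcat1 and -0.28 to 0.00073 for Pccb. At 5 days it gave -0.51 to 0.40 for Bcat2, -0.65 to 0.29 for Bckdha, -0.48 to 0.028 for Bckdhb, -0.035 to 0.80 for Dbt, -0.87 to 0.47 for Ivd, -0.36 to 0.23 for Mccc1, -0.25 to 0.59 for Mccc2, -0.39 to 0.12 for Hibch, -0.099 to 0.34 for Aldh6a1 and -0.31 to 0.44 for Pcca. For the further genes it gave -0.76 to 0.37 for Slc25a44, -0.41 to 0.67 for Bckdk, -0.099 to 0.56 for Ppm1k, -0.52 to 0.16 for Mmut and -0.53 to 0.36 for Klf15.

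A replicate block was fitted although the numbers share no stated origin, and deviations of same-numbered libraries had correlations of -0.0094, 0.16 and 0.075 at P23 and 0.079, 0.075 and 0.14 at P26. With the replicate block the medians were -0.90 at 2 days, -0.0038 at 5 days, 0.91 for the difference of effects, -0.43 for the average and -1.21 between control ages, with no call among the 10 genes. The block turned the sign of Mccc2 at 2 days (-0.54) and of Ivd (0.076), Mccc1 (0.041), Aldh6a1 (-0.061) and Klf15 (0.018) at 5 days.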
